A study of Homo sapiens with 4 samples.

Results

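This report follows 10 protein-coding genes that the tumour suppressor p53 is known to switch on: ZMAT3, BTG2, PLK2, PLK3, PHLDA3, RPS27L, TRIAP1, AEN, SPATA18 and TP53INP1. They were taken by symbol, by a choice made with earlier results of these data known, and all 10 were found among the 36601 genes of the 4 count matrices. The cells were U-2 OS, a human osteosarcoma line whose p53 is wild type. The IR group received 4 Gy of ionizing radiation and the UT group was left untreated, and the labels name no other treatment. Single cells were sorted into plates, and each plate was made into 1 library by SORT-seq, which counts the 3′ ends of transcripts with unique molecular identifiers (UMIs). There were 2 experiments with 1 IR and 1 UT library each, called IR 1, IR 2, UT 1 and UT 2 below. The series design and the study's methods place irradiation 48 h before sorting, while the samples' treatment protocol states 24 h. The study calls the experiments independent sets of samples. All come from 1 cell line, so the tests compare these 4 libraries and speak for no other line.

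The libraries held 247 and 248 IR cells (IR 1 and IR 2) and 358 and 367 UT cells (UT 1 and UT 2), 1220 cells in all. Summed counts ran between 5736339 and 6810079 per library. The IR cells were deeper, with a median of 20181 and 22036 counts per cell, against 15663 and 17627 in UT cells. Of 8 mesenchymal and bone markers, VIM, SPARC and COL1A1 were at 1114 CPM (counts per 1000000 counts of the library) or more in every library, RUNX2 was between 22 and 30.2 CPM, COL1A2 was between 0.51 and 2.64 CPM, and SP7, a marker of committed osteoblasts, was at 0. CD44 (300 and 308 CPM in IR, 107 and 121 CPM in UT) and ALPL (9.42 and 7.92 CPM in IR, 2.56 and 1.76 CPM in UT) were called higher in IR. Summed epithelial and leukocyte markers were 16.4 and 27.2 CPM in IR and 18.7 and 27.6 CPM in UT libraries. EPCAM alone had 13.6 and 14.1 CPM in IR and 17.2 and 15.4 CPM in UT libraries. PTPRC, CD3E and CD14 were higher in experiment 2 in both groups, at up to 4.36 CPM. The libraries shared between 173 and 350 cell barcodes per pair, since each plate draws on the same set.

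After DNA breaks, kinases such as ATM stabilise p53, which binds a response element in its targets and raises their transcription. The best known target is CDKN1A, which encodes the cyclin-dependent kinase inhibitor p21. The 10 genes studied here act elsewhere. ZMAT3 is a zinc finger protein that binds RNA and alters splicing and transcript stability, and BTG2 is an antiproliferative protein that brings the CCR4-NOT deadenylase to mRNAs. PLK2 and PLK3 are stress-responsive polo-like kinases, PHLDA3 competes with AKT for membrane phosphoinositides, and RPS27L is a close relative of the ribosomal protein RPS27. TRIAP1 is a mitochondrial protein that favours survival, AEN is a nuclease linked to apoptosis, SPATA18 (also called Mieap) takes part in mitochondrial quality control, and TP53INP1 links p53 to apoptosis and autophagy.

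The p53 response element consists of a pair of repeats of 10 bases each. Because these genes are grouped as p53 targets, the 2500 bases on each side of each gene's start site (GENCODE canonical transcript, hg38 build of GRCh38) were searched on both strands for the p53 consensus, with no spacer between the repeats and up to 2 mismatches outside the core C and G. This setting was chosen after a first search that allowed 1 mismatch. A match with at most 1 mismatch lay at 2 of the 10 genes and at 104 of 20033 protein-coding genes (0.519%). A match was present at 5 of the 10 genes, and 756 of 20033 protein-coding genes (3.77%) held one in a window of the same length. Perfect matches lay at 2 of the 10 genes and at 13 of all protein-coding genes (0.0649%). Of these matches 4 follow, because they are the letters in these genes that p53 could recognise, each on its gene's strand with 10 flanking bases on each side. Capitals mark bases that fit the consensus, and lower case inside the site marks a mismatch.
ZMAT3: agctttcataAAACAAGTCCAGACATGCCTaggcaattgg
PLK2: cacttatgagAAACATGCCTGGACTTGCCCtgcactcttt
AEN: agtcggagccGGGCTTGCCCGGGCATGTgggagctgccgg
SPATA18: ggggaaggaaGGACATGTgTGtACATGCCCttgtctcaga

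The ZMAT3 match (chr3:179070188-179070207, minus strand) was perfect and lay in an intron, 1611 bases downstream of the start site. The PLK2 match (chr5:58462274-58462293, minus strand) was also perfect and lay upstream, at position -2198 from the start site. The other matches shown had 2 mismatches each. They lay upstream of AEN at -24 (chr15:88621306-88621325) and 663 bases downstream of the SPATA18 start, in an intron (chr4:52051957-52051976). A match describes the letters only: binding of p53 was not measured in these libraries, and no match in a window says nothing of the factor.

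Irradiated cells held more of every detected transcript of the group. Of the 9 genes that passed the filter on low counts, all 9 had higher CPM in both IR libraries than in either UT library, as did 30.7% of all genes tested. ZMAT3, BTG2, TP53INP1 and PHLDA3 (4 of 9) rose past an adjusted p of 0.05 in edgeR's quasi-likelihood test on summed counts, and none fell. Across all 14647 genes tested, 1.63% (239) were called higher. IR and UT libraries of the same experiment deviated together (correlation 0.64), and with experiment as a block all 9 genes were called, with adjusted p between 5.7e-23 and 1.6e-06, against 14.3% of all genes (2094) called higher with that block. The block leaves 1 residual degree of freedom per gene, and its p-values rest largely on the spread shared across genes. The median log2 fold change of the 9 genes was 0.97, beside 0.00 for all genes tested. It was 0.87 for the 51 tested members of a list of other p53 targets, of which 19 were called higher and none lower.

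**Figure D1:**
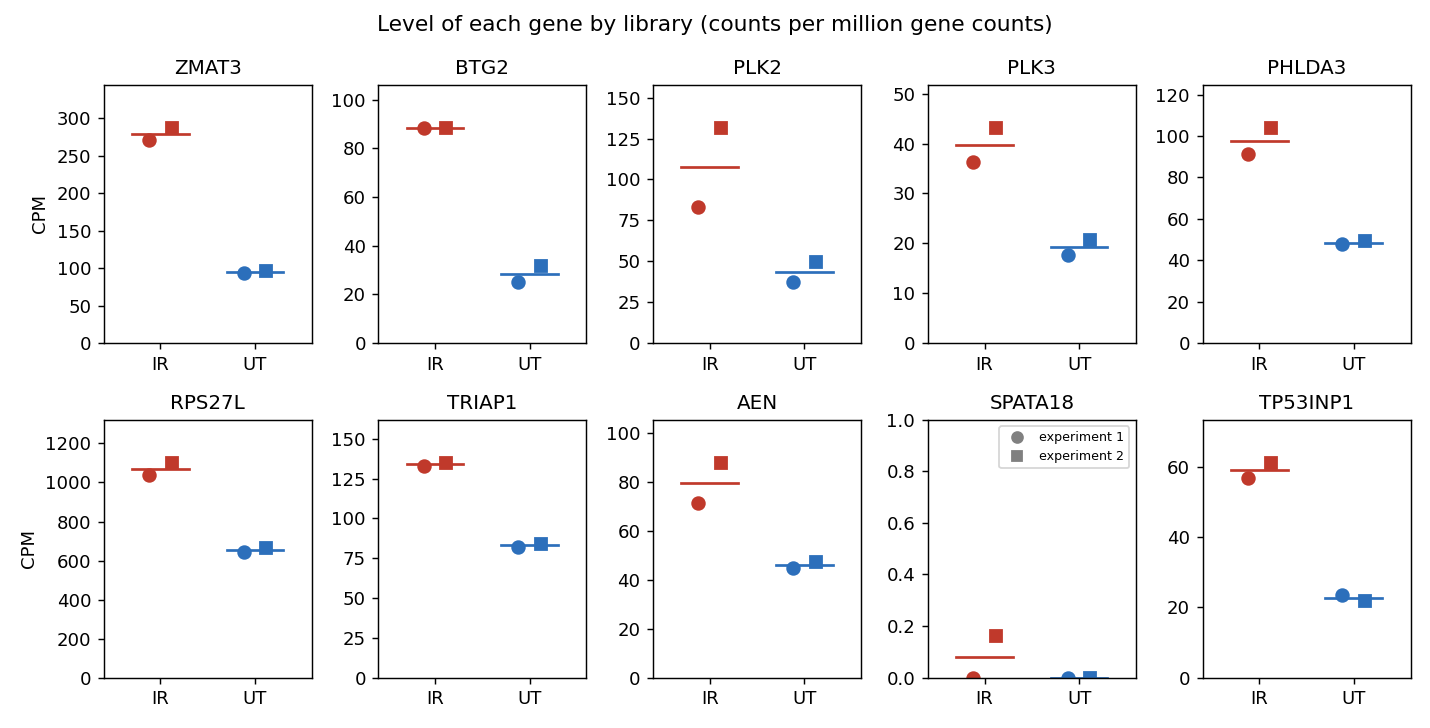
CPM in each library for the 10 genes, with IR left of UT in each panel, a circle or a square for the library of experiment 1 or 2, and a line at the group mean (n = 2). Both IR libraries lie above both UT libraries for the 9 detected genes, and SPATA18 has a single count, in IR 2.

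ZMAT3, the RNA-binding effector, had 271 and 287 CPM in IR 1 and IR 2, against 94.1 and 95.5 CPM in UT 1 and UT 2. Each group was tight and the groups were far apart. The log2 fold change was 1.48 (SE 0.15, edgeR adjusted p = 0.015), or 2.79-fold. The call held with any 1 library left out, with a log2 fold change between 1.45 and 1.51. ZMAT3 lies on chromosome 3 (178960121 to 179072215, minus strand, 6 exons in its canonical transcript).

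BTG2 had 88.4 CPM in both IR libraries, against 25.2 and 31.6 CPM in UT 1 and UT 2. This was the largest fold change of the 9 genes tested, 2.94-fold (log2 fold change 1.56, SE 0.18, edgeR adjusted p = 0.018), and it also held with any 1 library left out, between 1.42 and 1.72. BTG2 acts by recruiting CCR4-NOT, of whose 11 subunits 9 were lower in IR in both experiments (28.6% of all genes tested were), with a median log2 fold change of -0.21. None of the 11 passed the test, and with the experiment block 3 were called lower and none higher. Of all 14647 genes tested, that block called 1883 lower. CNOT7, a catalytic subunit that BTG2 binds, had 210 and 207 CPM in IR and 253 and 238 CPM in UT libraries (edgeR adjusted p = 0.31, and 0.0064 with the block). CNOT3 (log2 fold change -0.51), CNOT11 (-0.34) and CNOT6L (-0.41) had edgeR adjusted p of 0.22, 0.37 and 0.38.

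TP53INP1 had 56.8 and 61.1 CPM in IR 1 and IR 2, against 23.5 and 21.7 CPM in UT 1 and UT 2. The change was 2.47-fold (log2 fold change 1.30, SE 0.17, edgeR adjusted p = 0.021) and held with any 1 library left out. Its last exon overlaps NDUFAF6 on the other strand, and whether counting used strand is not stated.

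The polo-like kinases PLK2 and PLK3 were higher in IR, but neither passed the test without the block. PLK2 had 83.3 and 132 CPM in IR 1 and IR 2, against 37.3 and 49.8 CPM in UT 1 and UT 2. It varied more between experiments than the other genes, being higher in experiment 2 in both groups, and its ratio within an experiment was similar (log2 1.15 and 1.40). The log2 fold change was 1.22 (SE 0.25, edgeR adjusted p = 0.061, and 1.4e-14 with the block). PLK3 had 36.3 and 43.2 CPM in IR and 17.7 and 20.7 CPM in UT libraries, a log2 fold change of 0.97 (SE 0.19, edgeR adjusted p = 0.051). The last exon of PLK3 overlaps DYNLT4 on the other strand.

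PHLDA3, the AKT inhibitor, had 91.5 and 104 CPM in IR 1 and IR 2, against 47.9 and 49.0 CPM in UT 1 and UT 2. It rose 1.91-fold (log2 fold change 0.93, SE 0.16, edgeR adjusted p = 0.039). This call was lost whichever library was left out, with adjusted p between 0.083 and 0.11. A long non-coding RNA on the same strand overlaps its last exon.

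RPS27L was the most counted of the genes and one of the least changed. It had 1037 and 1102 CPM in IR 1 and IR 2, against 645 and 665 CPM in UT 1 and UT 2. The groups were well apart, yet a fold of 1.55 (log2 0.63, SE 0.15) gave an edgeR adjusted p of 0.084, and 2.6e-09 with the block. Its paralogue RPS27 had 2316 and 1744 CPM in IR and 2445 and 1541 CPM in UT libraries, a spread between experiments with overlapping groups (log2 fold change -0.05, edgeR adjusted p = 0.95). Reads that fit both genes were not counted, so each value covers only the sequence that tells them apart.

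TRIAP1 and AEN stand on opposite sides of the apoptotic response and had similar fold changes. TRIAP1 had 133 and 135 CPM in IR 1 and IR 2, against 82.0 and 84.1 CPM in UT 1 and UT 2 (log2 fold change 0.61, SE 0.14, edgeR adjusted p = 0.077). AEN had 71.5 and 87.8 CPM in IR 1 and IR 2, against 44.8 and 47.4 CPM in UT 1 and UT 2 (log2 fold change 0.71, SE 0.17, edgeR adjusted p = 0.083). Both were called with the block. A protein-coding gene on the other strand overlaps the last exon of TRIAP1.

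SPATA18 had 1 count in IR 2 and 0 counts in IR 1, UT 1 and UT 2. A library with 0 counts allows up to 3 counts, or 0.52 CPM in IR 1, 0.51 CPM in UT 1 and 0.44 CPM in UT 2. It was therefore not detectable at this depth in either group, and no fold change is given.

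Relatives of the 10 genes were measured alongside. Of 18 paralogues 14 passed the filter, and none passed the test, with a median log2 fold change of 0.20. With the experiment block 6 were called higher and 2 lower, beside 2094 higher and 1883 lower among all 14647 genes tested. The polo-like kinases of the dividing cell were lower: PLK1, which drives mitosis, had 100.1 and 100.2 CPM in IR and 178 and 143 CPM in UT libraries (log2 fold change -0.76, edgeR adjusted p = 0.071), and PLK4, which starts centriole duplication, had 22.5 and 17.8 CPM in IR and 36.3 and 39.1 CPM in UT libraries (-0.98, edgeR adjusted p = 0.051). These are the 2 paralogues called lower with the block. The 6 called higher with it were PHLDA2 (log2 fold change 0.88), BTG1 (0.92), TOB1 (0.52), TOB2 (0.35), ISG20 (1.75) and TP53INP2 (0.40). ISG20, an interferon-induced exonuclease related to AEN, had 9.94 and 29.6 CPM in IR and 4.26 and 6.75 CPM in UT libraries, with most of its counts in experiment 2. ZMAT2 (-0.13), ZMAT5 (0.10), BTG3 (0.15), PHLDA1 (-0.19) and ISG20L2 (0.25) were not called with or without the block, while ZMAT1, ZMAT4, BTG4 and PLK5 fell below the filter.

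Among the other p53 targets the smallest p was that of GDF15, a secreted stress cytokine, at 150 and 178 CPM in IR and 8.01 and 15.3 CPM in UT libraries (13.2-fold, edgeR adjusted p = 0.014). CDKN1A changed about as much as BTG2, with 959 and 914 CPM in IR and 324 and 277 CPM in UT libraries (2.95-fold, edgeR adjusted p = 0.018). GADD45A, TIGAR, FAS and MDM2 had folds of 2.71, 2.41, 3.45 and 2.76. The 9 tested genes had log2 fold changes between 0.61 and 1.56, inside the range of -0.26 to 3.72 of this list.

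Cell cycle genes moved along with these differences and their part in them was not tested by these sums. Of 43 S phase genes 5 were called lower, ATAD2, MCM7, BLM, WDR76 and GINS2, and none higher, and of 54 G2 and M phase genes 7 were called lower, MKI67, KIF11, TMPO, CENPF, SMC4, NUSAP1 and TOP2A, and none higher. By the same test 124 of all 14647 genes were called lower. The median log2 fold changes of the lists were -0.69 and -0.66.

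To compare cells at equal depth, every cell was thinned to 8000 UMIs, which left out 16 and 16 IR cells and 25 and 11 UT cells that were shallower. BTG2 was then detected in 45.9% and 46.1% of IR cells (106 of 231 and 107 of 232), against 12.6% and 18% of UT cells (42 of 333 and 64 of 356). ZMAT3 was detected in 77.9% and 81.0% of IR cells, against 46.8% and 40.7% of UT cells. For both genes the IR shares lay well above the UT shares, and the libraries of a group were close. PLK2 was detected in 40.7% and 53% of IR cells and 21.3% and 28.7% of UT cells, and TP53INP1 in 35.1% and 31.5% of IR cells and 14.1% and 16% of UT cells. PHLDA3 was detected in 45.0% and 56.0% of IR cells, against 29.7% and 28.4% of UT cells.

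Shares of TRIAP1 were 64.9% and 60.3% in IR cells and 46.2% and 42.1% in UT cells, and those of AEN were 42.0% and 45.7% in IR cells and 28.2% and 28.4% in UT cells. PLK3 was detected in the fewest cells among the detected genes, 29.0% and 22.4% of IR cells and 12% and 14% of UT cells. RPS27L was found in 99.6% and 100% of IR cells and 98.8% and 98.3% of UT cells, so its difference lay in UMIs per cell, with a mean of 8.05 and 9.28 in IR cells and 5.24 and 5.22 in UT cells. For 9 of the 10 genes both IR shares were above both UT shares, as they were for 24.7% of all genes tested. SPATA18 was found in 0 of 231, 0 of 232, 0 of 333 and 0 of 356 thinned cells of IR 1, IR 2, UT 1 and UT 2, which allows shares of up to 1.30%, 1.29%, 0.90% and 0.84% (3 cells of each total) with a UMI at this depth and sets no limit on cells that express it. These limits and intervals cover counting error only, and an exact permutation test of 2 against 2 libraries cannot give a two-sided p below 0.33.

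**Figure D2:**
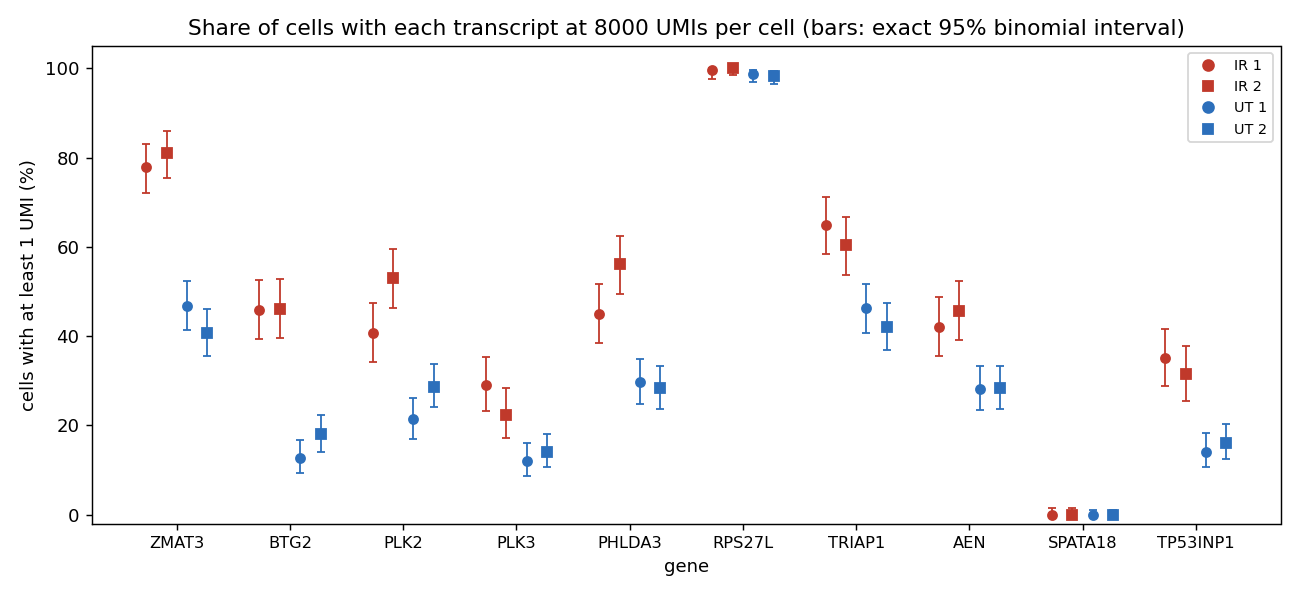
Percentage of cells with at least 1 UMI of each gene after thinning to 8000 UMIs per cell, by library, with IR 1 and IR 2 left of UT 1 and UT 2 and bars for the exact 95% binomial interval. BTG2 was detected in 45.9% and 46.1% of IR cells and in 12.6% and 18% of UT cells, and RPS27L in nearly all cells of both groups.

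Unthinned, BTG2 had a count in 71.3% and 73.0% of IR cells and 23.5% and 30.5% of UT cells, and ZMAT3 in 91.1% and 91.9% of IR cells and 61.7% and 66.2% of UT cells. Requiring at least 2 UMIs in the thinned cells left ZMAT3 in 54.1% and 61.2% of IR cells, against 19.8% and 16.9% of UT cells, and BTG2 in 18.2% and 18.5% of IR cells, against 3.60% and 5.62% of UT cells.

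The number of these genes detected per cell also differed between the groups. A thinned cell held a median of 5 of the 10 genes in both IR libraries and 3 in both UT libraries. At least 5 were found in 61.9% and 61.6% of IR cells, against 14.7% and 17.4% of UT cells, and at most 1 was found in 1.30% and 0.43% of IR cells, against 10.2% and 10.1% of UT cells. Most of the genes had a mean near or under 1 UMI per thinned cell, and SPATA18 had none, so sparse sampling limits these numbers. Leaving out RPS27L, the genes summed to a mean of 6.68 and 7.61 UMIs per IR cell and 2.94 and 3.15 UMIs per UT cell.

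**Figure D3:**
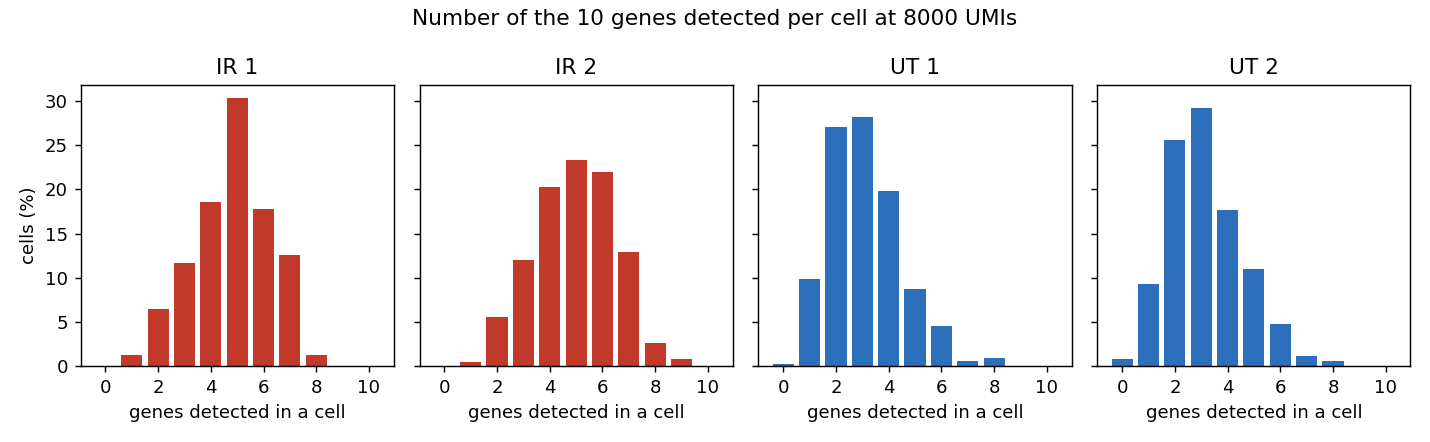
Percentage of thinned cells in which a given number of the 10 genes had at least 1 UMI, in 1 panel per library, IR 1 and IR 2 left of UT 1 and UT 2. The IR panels peak at 5 genes and the UT panels at 3.

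The IR libraries held more cells with few cell cycle transcripts, so the comparison was repeated within classes of like cycle state. Each thinned cell was placed by the share of its UMIs in the S phase and G2/M lists, with the UT medians (0.488% and 0.781% of UMIs) as cut points, into a low cycle, an S or a G2/M class. Such classes are ranges of a score and not cell types: between 1 and 15 cells per class and library lay within 10% of a cut. The low class held 62.3% and 59.9% of IR cells and 29.7% and 27.8% of UT cells, the S class 17.3% and 14.7% of IR cells and 34.2% and 38.5% of UT cells, and the G2/M class 20.3% and 25.4% of IR cells and 36.0% and 33.7% of UT cells. Within the low class, IR cells still had a lower median S share than UT cells (0.125% and 0.138% in IR, 0.225% and 0.238% in UT).

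BTG2 showed how much the answer depends on the class. In S cells it had 94.5 and 83.4 CPM in IR 1 and IR 2, against 14.8 and 26.5 CPM in UT 1 and UT 2 (log2 fold change 1.99, SE 0.29, edgeR adjusted p = 0.0045). In G2/M cells it had 62.8 and 64.4 CPM in IR, against 11.8 and 16 CPM in UT (log2 fold change 2.10, SE 0.25, edgeR adjusted p = 0.021). In low cycle cells it had 95.5 and 103 CPM in IR, against 59.5 and 63.9 CPM in UT (log2 fold change 0.62, SE 0.18, edgeR adjusted p = 0.20). Untreated cells thus had most BTG2 in the low class, while irradiated S cells of IR 1 had as much as irradiated low cycle cells.

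ZMAT3 had 212 and 274 CPM in irradiated S cells, against 63.4 and 73.6 CPM in untreated S cells (log2 fold change 1.74, SE 0.22, edgeR adjusted p = 0.0024). In G2/M cells it had 188 CPM in both IR libraries, against 75.7 and 66.7 CPM in UT 1 and UT 2 (log2 fold change 1.31, SE 0.18, edgeR adjusted p = 0.025). In low cycle cells it had 322 and 354 CPM in IR, against 158 and 175 CPM in UT (log2 fold change 0.95, SE 0.18, edgeR adjusted p = 0.061). ZMAT3 was highest in the low class in every library.

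BTG2 and ZMAT3 (2 of 9) were the genes called higher in S cells and in G2/M cells, and none of the 9 was called in low cycle cells. The share of all genes called higher was 1.01% in S cells, 0.475% in G2/M cells and 0.32% in low cycle cells. At an unadjusted p under 0.05, edgeR had 838 of 12800 genes (6.55%) higher in low cycle cells, with 8 of the 9 genes, all but RPS27L, among them. With the experiment block 8 of 9 were called in S cells, all but PLK3, and 9 of 9 in both G2/M and low cycle cells, against 5.56%, 6.95% and 7.05% of all genes. Leaving out IR 1 or IR 2 left neither BTG2 nor ZMAT3 called in G2/M cells, where leaving out IR 1 left 1 gene of 12717 called higher in all and leaving out IR 2 left none.

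Whether the effect of IR differed between classes was tested in 1 fit over the 12 class sums, with a term for each library. For BTG2 the log2 fold change in S cells exceeded that in low cycle cells by 1.38 (SE 0.24, edgeR adjusted p = 0.00034) and that in G2/M cells exceeded it by 1.49 (SE 0.25, adjusted p = 0.00024). For ZMAT3 the S cells exceeded the low cycle cells by 0.78 (SE 0.15, edgeR adjusted p = 0.0027), and the G2/M difference of 0.35 did not pass (adjusted p = 0.47). Of all genes, 0.356% were called with a larger IR effect in S than in low cycle cells and 0.426% with a larger effect in G2/M. CDKN1A was among them, with differences of 0.58 and 0.80, of which the S one was lost without UT 1 and the G2/M one without UT 2. The size of the BTG2 differences stayed between 1.10 and 1.79 when any 1 library was left out, yet without UT 1 neither passed (adjusted p = 0.34 and 0.14), and without UT 2 the G2/M difference did not (0.076). The ZMAT3 difference did not pass without IR 2, UT 1 or UT 2 (adjusted p = 0.061, 0.27 and 0.29).

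**Figure D4:**
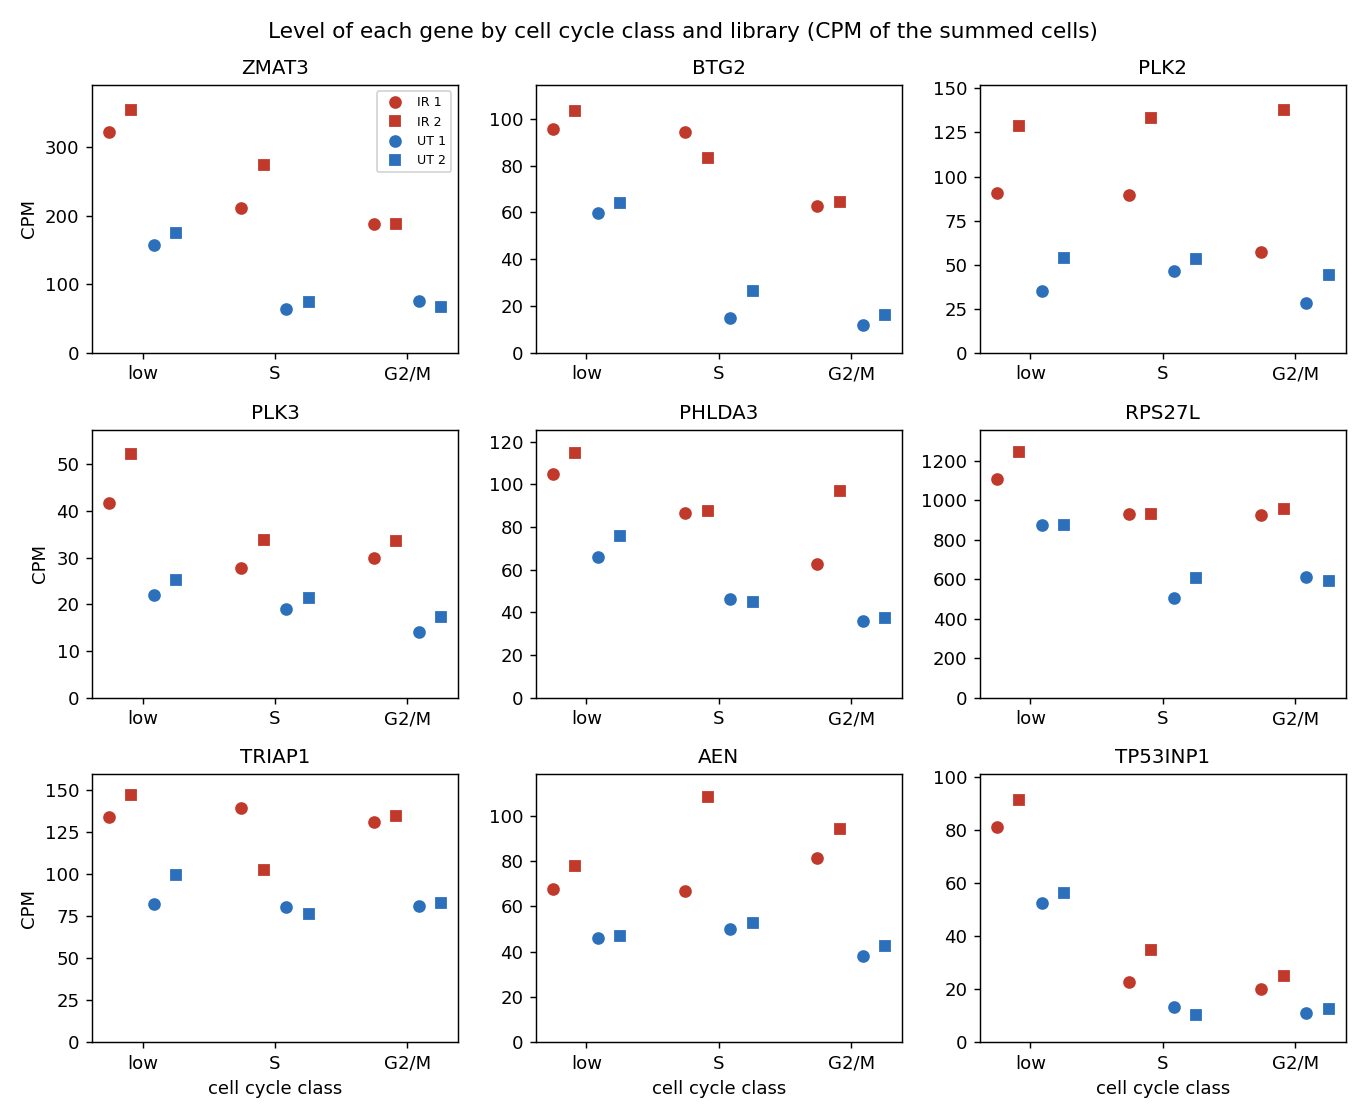
CPM of 9 genes in the summed cells of the low cycle, S and G2/M classes, with IR 1 and IR 2 (red) left of UT 1 and UT 2 (blue) in each class. BTG2 stays between 62.8 and 103 CPM over the IR classes and lies between 11.8 and 63.9 CPM over the UT classes, while TP53INP1 is highest in low cycle cells of both groups.

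For each of the other 7 genes, both IR libraries lay above both UT libraries in every class, as did 26.3% of all genes tested in low cycle, 26.7% in S and 27.7% in G2/M cells. TP53INP1 was concentrated in low cycle cells of both groups, with 81.1 and 91.2 CPM in IR and 52.4 and 56.3 CPM in UT, and was lower in S cells, with 22.9 and 34.7 CPM in IR and 13.3 and 10.3 CPM in UT. Its IR effect did not pass in any class without the block (edgeR adjusted p = 0.24 in low cycle, 0.14 in S and 0.28 in G2/M cells). PLK2 was not concentrated in low cycle cells, where it had 90.7 and 129 CPM in IR and 34.9 and 53.8 CPM in UT. In S cells PLK2 had 89.5 and 133 CPM in IR and 46.5 and 53.3 CPM in UT. Its G2/M values were 57.5 and 138 CPM in IR and 28.1 and 44.2 CPM in UT. G2/M was its lowest class in every library but IR 2. TRIAP1 was nearly level over the UT classes, between 76.1 and 99.3 CPM, and lay between 102 and 147 CPM over the IR classes. AEN in G2/M cells had 81.2 and 94.2 CPM in IR and 38.1 and 42.6 CPM in UT (log2 fold change 1.04, edgeR adjusted p = 0.071). For these genes no difference between classes passed the test, with adjusted p between 0.19 and 1.00 for the 7 genes.

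Across cells of a library, the 9 detected genes correlated positively with CDKN1A, though AEN and PLK3 only at 0.02 and 0.03 in IR 2. These are rank correlations over 231 and 232 IR cells and 333 and 356 UT cells thinned to 8000 UMIs, which share a library and a depth, and they are given as a description. RPS27L had Spearman's rho of 0.21 and 0.26 in IR cells and 0.38 and 0.32 in UT cells. TP53INP1 had 0.19 and 0.26 in IR cells and 0.24 and 0.30 in UT cells, and ZMAT3 0.19 and 0.24 in IR cells and 0.25 and 0.26 in UT cells. BTG2 had 0.18 and 0.22 in IR cells and 0.18 and 0.24 in UT cells. AEN had 0.19 and 0.02 in IR cells and 0.12 and 0.08 in UT cells, and PLK3 had 0.27 and 0.03 in IR cells and 0.08 in both UT libraries, so both differed widely between the IR libraries. For PLK2, PHLDA3 and TRIAP1 the values lay between 0.07 and 0.17.

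Among 2923 genes with at least 0.5 thinned UMIs per cell in every library, the mean rho with CDKN1A had a median of 0.00 and a 95th percentile of 0.09. RPS27L ranked 3 at a mean of 0.30, ZMAT3 ranked 5 at 0.23 and TRIAP1 ranked 75 at 0.12. The other 7 genes were too sparse for that ranking. Detection limits rho in sparse counts, so the order of genes with different levels cannot be read from it. In low cycle cells alone (144 and 139 IR cells, 99 and 99 UT cells), rho lay between 0.00 (PLK3, IR 2) and 0.56 (RPS27L, UT 1). It was positive for all 9 genes in all 4 libraries, but some values were close to 0, such as 0.03 for ZMAT3 in IR 1. No such count was made over all genes, and the part of the cycle in these values was not tested.

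**Figure D5:**
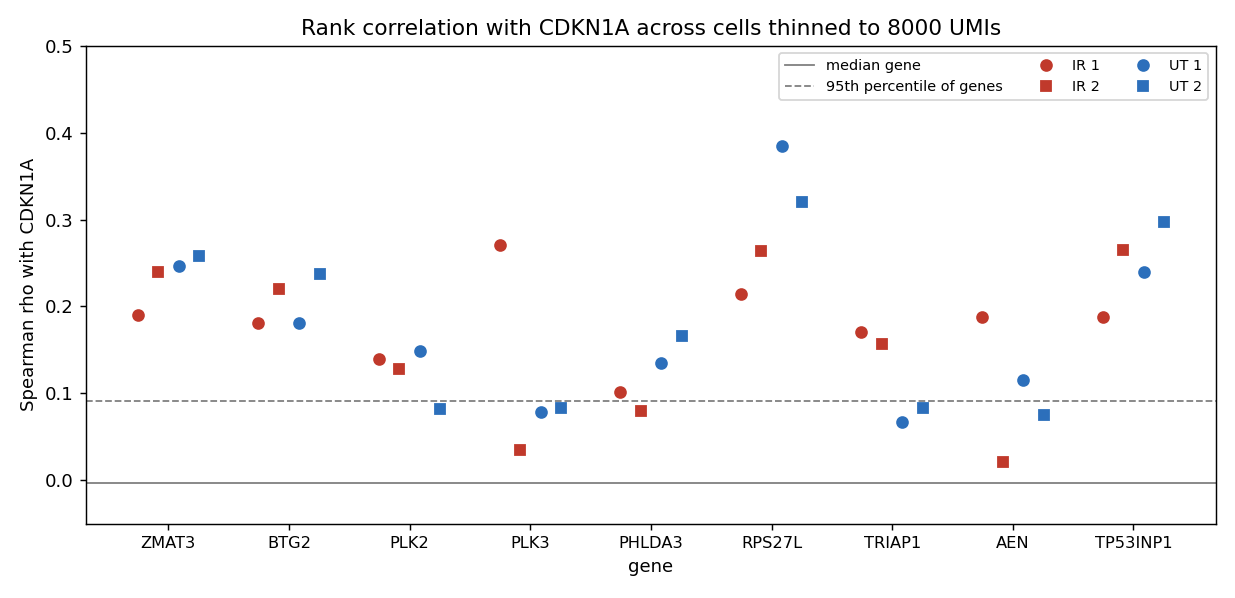
Spearman's rho of each gene with CDKN1A across the thinned cells of each library, IR 1 and IR 2 left of UT 1 and UT 2, with lines at the median and the 95th percentile of the mean rho of 2923 genes. The lines are for means over the libraries, which spread less than the single-library points, so a point cannot be ranked against them. Of the plotted genes only RPS27L, ZMAT3 and TRIAP1 are among the 2923. RPS27L reaches 0.38 in UT 1, and PLK3 lies at 0.27 in IR 1 and 0.03 in IR 2.

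By the same measure the genes most like ZMAT3 were NEAT1 (mean rho 0.27), a nuclear long non-coding RNA, CDKN1A (0.23) and MALAT1 (0.23), another nuclear RNA. Those most like RPS27L were CDKN1A (0.30), NEAT1 (0.24) and the ribosomal protein gene RPLP1 (0.21). Those most like TRIAP1 were RPL14 (0.13), CDKN1A (0.12) and RPL27 (0.12), all weak. NEAT1 had 1947 and 1874 CPM in IR and 1267 and 1286 CPM in UT libraries (log2 fold change 0.50, edgeR adjusted p = 0.14, and 6.4e-07 with the block). It was thus called only with the block. MALAT1 (-0.05), RPL14 (-0.08), RPL27 (0.05) and RPLP1 (-0.20) were not called with or without it.

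Each library was also split into terciles by CDKN1A and the CPM of each gene compared. TP53INP1 in the highest tercile was 2.29 and 2.83 times its level in the lowest tercile of IR cells and 5.29 and 4.55 times in UT cells. For BTG2 the ratio was 1.74 and 2.18 in IR and 3.10 and 3.25 in UT cells, and for ZMAT3 1.56 and 1.85 in IR and 2.34 and 2.37 in UT cells. RPS27L had ratios of 1.21 and 1.30 in IR and 1.77 and 1.47 in UT cells, and TRIAP1 had 1.70 and 1.58 in IR and 1.23 and 1.30 in UT cells. The ratio was 1.73 and 1.08 in IR and 1.81 and 1.43 in UT cells for AEN, and 1.85 and 1.14 in IR and 1.76 and 1.82 in UT cells for PHLDA3. PLK3 had 2.77 and 1.27 in IR and 2 and 1.79 in UT cells, and PLK2 1.29 and 1.55 in IR and 1.82 and 1.28 in UT cells. Every ratio was above 1, and for AEN, PHLDA3 and PLK3 it was nearest to 1 in IR 2. Several ratios rest on few UMIs and are imprecise. The lowest tercile of UT 1 and UT 2 held 7 and 11 thinned UMIs of TP53INP1, 10 and 16 of BTG2, and 10 and 14 of PLK3. In UT cells the lowest tercile had no CDKN1A UMI at all, while in IR cells it held a mean of 2.56 and 2.39 UMIs, so the terciles do not stand for the same levels in both groups. The cycle moved with this split: low cycle cells made up 77.9% and 83.1% of the highest tercile and 46.8% and 40.3% of the lowest tercile in IR, against 50.5% and 47.5% of the highest and 21.6% and 22% of the lowest tercile in UT. The part of the cycle in these ratios was not tested.

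Correlations among the genes themselves are given likewise as a description. Of 36 pairs of the 9 detected genes, 33 had a positive mean rho over the 4 libraries and 17 were positive in every library, with a median of 0.06. No such count was made for pairs of other genes, and the part of the cycle in these values was not tested. The highest pairs were ZMAT3 with TP53INP1 (0.18), RPS27L with TP53INP1 (0.18) and ZMAT3 with RPS27L (0.15).

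Cell to cell variability was set against that of genes of like mean. The measure was the residual of a gene's log2 standard deviation from a linear fit on the log2 mean over the genes of a library. A residual above 0.5 was called highly variable. In unthinned cells PLK2 exceeded it in IR 1 (0.75) and UT 1 (0.98) but not in IR 2 (0.43) or UT 2 (0.24), and RPS27L did so in UT 2 (0.54). Thus 1 of 9 genes was above it in IR 1, none in IR 2, 1 in UT 1 and 1 in UT 2, beside 3.47%, 3.85%, 1.9% and 1.81% of all genes. With cells thinned to 8000 UMIs none of the 9 exceeded 0.5, beside 1.35%, 1.3%, 0.974% and 0.846% of genes, and the highest was ZMAT3 in UT 2 (0.45). CDKN1A exceeded it in every library in both settings, with thinned residuals of 0.61 and 0.62 in IR and 1.10 and 0.84 in UT.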

How the data were processed

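The 4 libraries were made by SORT-seq with the CEL-Seq2 protocol. Per the study's methods and the submitters' processing notes, the authors mapped reads to GRCh38 with STARsolo, counted no intronic and no multi-gene reads and set no UMI minimum; for strand use and UMI merging no source used here gives a setting. The deposited values are expected counts per gene and cell: UMI numbers corrected by the authors for collisions among 4096 possible UMIs, from which the UMI numbers were recovered. Spike-ins made up 0.191% to 1.21% of counts and were left out.

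Counts were summed per library, rounded, and tested with edgeR 4.0.16 (R 4.3.3; quasi-likelihood, TMM, filterByExpr, IR against UT, Benjamini-Hochberg over all genes tested). CPM are relative to all gene counts of a library, without TMM, and fold changes include it. Experiment numbers in the titles pair the libraries: deviations from the group means correlated at 0.635, and the block lowered the common biological coefficient of variation from 0.177 to 0.0727. Class sums used the unthinned counts of the cells that could be thinned. Each library left out in turn, DESeq2 1.42.0, no TMM, no filter, recovered UMIs, 247 cells per library, other depths and class cuts were tried. Scripts were tested on simulated data. No doublet caller was run. Cell data were processed in Python 3.11.15. Summed counts of 5736339 to 6810079 per library put 1 count at under 0.2 CPM.

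The 10 genes and all lists were chosen with earlier results of these data known. Named genes are the 10, CDKN1A, FAS, GADD45A, MDM2, paralogues that passed the filter, up to 4 genes of each other list by p, and for each gene with at least 0.5 thinned UMIs per cell in every library the 3 most like it. Further S, G2 and M phase genes, paralogues below the filter and marker genes were named after their values were seen. 1 sequence match is not reported here.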

Additional observations from a re-analysis of the deposited data

Results flagged for a closer look

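The effect of IR on BTG2 differed between cell cycle classes in a test of the difference itself. The log2 fold change was 1.38 larger in S than in low cycle cells and 1.49 larger in G2/M than in low cycle cells. ZMAT3 was flagged on the same grounds, with a log2 fold change 0.78 larger in S than in low cycle cells. In low cycle cells the IR libraries also had a lower median S share of UMIs (0.125% and 0.138%) than the UT libraries (0.225% and 0.238%), and the part of this in the differences was not tested. Without UT 1 none of the 3 differences passed (adjusted p = 0.34, 0.14 and 0.27 in edgeR's quasi-likelihood test), and with the class cut at the 60th percentile both BTG2 differences did (0.012 and 0.027) while the ZMAT3 difference did not (0.28).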

How the results depend on the processing

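The direction of all 9 tested genes was the same under each of the 10 alternatives, 90 values in all, of which 71 kept their side of the threshold, 15 passed it newly and 4 no longer passed. Of the genes, 9 were called higher with the replicate block or with no filter and 7 with DESeq2, and between 3 and 4 with 1 library left out. Over all genes, 2094 were higher and 1883 lower with the block, 929 and 584 with no filter, 223 lower with DESeq2 and 81 lower without TMM, which moved the median log2 fold change of all genes to 0.08. Leaving out 1 library left 103 to 168 genes higher and 20 to 88 lower, beside 239 and 124 with all 4: without IR 1 103 and 20, without IR 2 155 and 35, without UT 2 154 and 63. In low cycle cells 9 genes were called with the block, 1 with the cut at the 60th percentile, and 0 to 3 with a library left out (ZMAT3, PLK2 and PLK3 without IR 1, PLK2 without IR 2). In S cells 8 were called with the block and 2 to 3 with a library left out, and in G2/M cells 9 with the block and 0 to 4 with a library left out (4 without UT 2). Of the 3 class differences called, 0 to 3 passed with a library left out, an alternative chosen after seeing the data. With a library left out its group has 1 sample, assumed to vary like the other group. The number of highly variable genes of the group was 2 at first, 1 with a minimum of 10% of cells and 0 after thinning. The rank correlation with CDKN1A at 5000 UMIs was positive in all libraries for 8 genes, with AEN at -0.01 in IR 2. The causes of these shifts were not tested. Depth limits SPATA18, with 1 count in all, and the sparse genes in single cells.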
